A study of Mus musculus with 8 samples.

Results

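Periostin, its relative transforming growth factor-beta-induced protein, the tenascins, the thrombospondins and fibronectin are secreted proteins of the extracellular matrix. The 10 genes described here are *Postn*, *Tgfbi*, *Tnc*, *Tnn*, *Tnxb*, *Thbs1*, *Thbs2*, *Thbs3*, *Thbs4* and *Fn1*. They were chosen by symbol as members of these families, by a rule that uses no measured value, although earlier results of these data were known when the set was put together. They are 10 of the 24346 genes in the table of expression values.

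The RNA came from bone marrow multipotent mesenchymal stem/stromal cells (MSCs) of C57BL/6 mice that either lacked *Dnmt3l* (KO, homozygous for the tmEnls allele in all cells) or were *Dnmt3l*+/+ littermates (WT). *Dnmt3l* encodes a cofactor of the de novo DNA methyltransferases. Both genotypes came from crosses of heterozygous animals, and the donors were adult females. Cells of several mice of a genotype were mixed, and CD11b+ and CD45+ cells were depleted. MSCs of each genotype were sequenced at passage 4 in 2 states, undifferentiated in medium with 20% serum or differentiating after 3 days of osteogenic induction. The induction medium held 10% serum, 0.1 µM dexamethasone, 10 mM beta-glycerophosphate and 50 µM ascorbic acid 2-phosphate, so the inducers and the lower serum cannot be told apart. Each of the 4 groups (undifferentiated WT, undifferentiated KO, differentiating WT, differentiating KO) had 2 libraries. It is not stated if the 2 libraries within a group derive from different mixtures of mice, so p-values measure the spread between these libraries, which may be technical.

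Most of these proteins are called matricellular, since they sit in the matrix and act on cells through receptors rather than as its main structural fibres. Fibronectin is assembled by cells into fibrils that serve as a scaffold for other matrix proteins. Periostin and the *Tgfbi* product carry fasciclin domains and bind collagen and integrins, and periostin is abundant in the periosteum and other collagen-rich tissue under load. Tenascin-C weakens the adhesion of cells to fibronectin, tenascin-N (also called tenascin-W) is a tenascin of bone and of tumour stroma, and tenascin-X is a tenascin of loose connective tissue that supports collagen fibrils. Thrombospondin 1 and thrombospondin 2 form trimers, bind CD36 and CD47 and restrain the growth of blood vessels, and thrombospondin 1 can activate latent transforming growth factor-beta (TGF-beta). Thrombospondin 3 and thrombospondin 4 belong to the pentameric subgroup, as does cartilage oligomeric matrix protein.

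Expression was given as read density per transcript length and sequencing depth (RPKM), which is per length, so levels of different genes can be set side by side. Depth, estimated from the step that 1 read makes in scarce genes, was 48.3 to 66.8 M scaled reads. *Dnmt3l*, the targeted gene, was at 1.56 and 1.09 RPKM in undifferentiated WT MSCs, at 0.845 and 0.830 RPKM in differentiating WT MSCs and at 0 in all 4 KO libraries. The paper reports that the WT reads covered only the later exons of the gene, and that the canonical protein was not detectable in cultured MSCs. All 12 MSC markers examined, such as *Pdgfra*, *Thy1* and *Ly6a*, were above 1 RPKM in every library.

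The start regions of 4 members are shown first, those of *Postn* and *Thbs2*, which were lower in KO MSCs in both states, and those of *Tnc* and *Tnxb*, which differed by more than 2-fold in opposite directions in differentiating KO MSCs. A RefSeq start with its upstream sequence in GRCm38.p6 (mm10) was found for 8 of the 10 genes, with 2 starts each for *Postn* and *Tnc*. *Thbs1* and *Fn1* had no entry. The 250 bases before the start were searched on both strands for 5 motifs. TGANTCA is the site bound by AP-1 factors, and ACCACA is the core bound by RUNX factors. The E-box is CANNTG, a site of basic helix-loop-helix factors. The element bound by SMAD factors, which carry TGF-beta signals, is CAGAC. The TATA box was searched as TATAAA. The sequences are written 5′ to 3′ in the direction of transcription, in lower case with each match in capitals. The *Postn* region is chr3:54360857-54361106 on the plus strand, the *Tnxb* region is chr17:34670285-34670534 on the plus strand, the *Tnc* region is chr4:64046937-64047186 on the minus strand, and the *Thbs2* region is chr17:14694263-14694512 on the minus strand.
Postn: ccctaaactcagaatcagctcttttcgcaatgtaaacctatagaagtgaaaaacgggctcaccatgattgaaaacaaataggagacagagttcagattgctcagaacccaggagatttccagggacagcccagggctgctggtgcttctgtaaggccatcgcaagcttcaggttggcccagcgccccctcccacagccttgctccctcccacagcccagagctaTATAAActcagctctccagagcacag
Tnxb: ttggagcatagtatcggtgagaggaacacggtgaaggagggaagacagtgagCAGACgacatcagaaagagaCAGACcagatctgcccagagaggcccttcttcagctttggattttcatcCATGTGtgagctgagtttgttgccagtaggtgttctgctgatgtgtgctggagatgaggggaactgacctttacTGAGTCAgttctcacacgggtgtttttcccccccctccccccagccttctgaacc
Tnc: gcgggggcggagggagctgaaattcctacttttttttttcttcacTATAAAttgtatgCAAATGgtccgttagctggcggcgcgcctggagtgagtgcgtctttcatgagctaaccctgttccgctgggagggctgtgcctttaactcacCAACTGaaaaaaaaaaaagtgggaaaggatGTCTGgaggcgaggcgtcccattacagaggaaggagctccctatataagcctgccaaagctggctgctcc
Thbs2: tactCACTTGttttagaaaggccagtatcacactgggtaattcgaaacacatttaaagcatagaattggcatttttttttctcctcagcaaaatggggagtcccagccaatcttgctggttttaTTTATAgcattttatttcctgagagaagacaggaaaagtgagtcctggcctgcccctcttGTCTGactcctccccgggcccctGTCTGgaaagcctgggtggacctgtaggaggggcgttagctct

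The *Postn* region held a TATAAA 26 to 21 bases before the start and none of the other motifs, while the other *Postn* start, at position 54359267, held 1 CAGAC. The *Tnc* and *Thbs2* regions held TATAAA, or its reverse complement, farther upstream. The *Tnc* region also held the letters tatataa close to the start, which the search for TATAAA does not match. TATAAA occurred in 12.4% of the 32851 promoters of the same length. *Tnxb* held the only AP-1 motif among the windows, 55 to 49 bases before the start, a motif found in 6.75% of promoters. CAGAC, on either strand, occurred in 42.2% of promoters and matched at 2 places each in the windows of *Tgfbi*, *Tnxb*, *Thbs2* and *Thbs4*. ACCACA, found in 14.0% of promoters, was in none of the 10 windows. An E-box occurred in 66.2% of promoters and in the windows of *Tnc*, *Tnxb*, *Thbs2*, *Thbs3* and *Thbs4*. The *Tnn* window held none of these motifs. These matches are letters in a short window and were not tested as binding sites.

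In the GENCODE annotation of mm10, *Postn* (chr3:54361109-54391037) and *Thbs3* (chr3:89215180-89226837) share chromosome 3, *Tnxb* (chr17:34670535-34719815) and *Thbs2* (chr17:14665500-14694235) share chromosome 17, and *Tnn* (chr1:160085029-160153580) and *Fn1* (chr1:71585520-71653200) share chromosome 1. *Tgfbi* (chr13:56609523-56639562) and *Thbs4* (chr13:92751590-92794818) share chromosome 13. *Tnc* (chr4:63959785-64047015) and *Thbs1* (chr2:118111876-118127133) stand alone. Each value is for the whole gene, summed over all its exons. Exons of *Thbs3* share 318 bases with *Mtx1*, exons of *Fn1* share 292 bases with *Apol7d* and exons of *Tnc* share 176 bases with *8030451A03Rik*, in each case on the opposite strand. The alignment was strand-specific.

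Fibronectin was among the most abundant transcripts of these cells. *Fn1* was at 698 and 613 RPKM in undifferentiated WT MSCs, at 593 and 564 RPKM in undifferentiated KO MSCs, at 804 and 665 RPKM in differentiating WT MSCs and at 501 and 639 RPKM in differentiating KO MSCs. The differentiating libraries overlapped the undifferentiated ones in each genotype, while WT and KO did not overlap within either state. Its rank among all genes by mean RPKM was 157 in undifferentiated WT MSCs and 168 in undifferentiated KO MSCs. The rank was 129 in differentiating WT MSCs and 158 in differentiating KO MSCs. Ranks here and below use the values as deposited, so an abundant gene listed at 0 in a group was ranked last there.

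Periostin became the most abundant of the 9 transcripts compared once induction had begun. *Postn* was at 299 and 315 RPKM in undifferentiated WT MSCs, at 135 and 137 RPKM in undifferentiated KO MSCs, at 2440.1 and 2264 RPKM in differentiating WT MSCs and at 1880.1 and 1861 RPKM in differentiating KO MSCs. No group overlapped another, and in both states the WT libraries were above the KO libraries. *Postn* rose from rank 291 to rank 27 of all genes in WT MSCs and from rank 654 to rank 41 in KO MSCs. Its relative *Tgfbi* ran the other way. *Tgfbi* was at 14.1 and 13.1 RPKM in undifferentiated WT MSCs, at 28.4 and 29.4 RPKM in undifferentiated KO MSCs, at 1.59 and 1.26 RPKM in differentiating WT MSCs and at 1.84 and 1.88 RPKM in differentiating KO MSCs. The undifferentiated KO libraries were the highest, and both differentiating groups lay below 2 RPKM.

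Among the tenascins, *Tnc* was at 168 and 169.6 RPKM in undifferentiated WT MSCs, at 154 and 152 RPKM in undifferentiated KO MSCs, at 49.1 and 46.5 RPKM in differentiating WT MSCs and at 18.8 and 15.1 RPKM in differentiating KO MSCs. The 2 undifferentiated groups were close, and the differentiating KO libraries were the lowest. *Tnn* was at 37.2 and 36.9 RPKM in undifferentiated WT MSCs, at 30.7 and 32.2 RPKM in undifferentiated KO MSCs, at 38.2 and 37.9 RPKM in differentiating WT MSCs and at 16.9 and 14.0 RPKM in differentiating KO MSCs. The differentiating KO libraries stood apart from the other 6, which lay between 30.7 and 38.2 RPKM. *Tnxb* was the scarcest, at 0.221 and 0.233 RPKM in undifferentiated WT MSCs, 0.646 and 0.615 RPKM in undifferentiated KO MSCs, 3.32 and 2.94 RPKM in differentiating WT MSCs and 6.41 and 9.25 RPKM in differentiating KO MSCs. No group overlapped another for *Tnxb*, and its lowest values still rested on an estimated 130 and 143 reads. In differentiating KO MSCs, *Tnc* and *Tnn* were lower and *Tnxb* was higher in replicate 2 than in replicate 1.

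Among the thrombospondins, *Thbs2* was at 471 and 490.1 RPKM in undifferentiated WT MSCs, at 268 and 271 RPKM in undifferentiated KO MSCs, at 179.8 and 170.0 RPKM in differentiating WT MSCs and at 144 and 150.1 RPKM in differentiating KO MSCs. Its groups did not overlap, with WT above KO in each state. *Thbs4* was at 0.861 and 0.968 RPKM in undifferentiated WT MSCs, at 2.51 and 2.41 RPKM in undifferentiated KO MSCs, at 6.67 and 5.28 RPKM in differentiating WT MSCs and at 7.67 and 7.86 RPKM in differentiating KO MSCs. The groups of *Thbs4* did not overlap either, and its order was the reverse of that of *Thbs2*. *Thbs3* was at 16.9 and 17.0 RPKM in undifferentiated WT MSCs, at 17.7 and 18.1 RPKM in undifferentiated KO MSCs, at 16.5 and 16.7 RPKM in differentiating WT MSCs and at 18.0 and 17.0 RPKM in differentiating KO MSCs. All 8 libraries of *Thbs3* lay between 16.5 and 18.1 RPKM.

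*Thbs1* was at 1029 and 970.3 RPKM in differentiating KO MSCs, which placed it at rank 111 of all genes, and was listed at 0 in the other 6 libraries. An exact 0 in both libraries of a group, beside 20 RPKM or more in both libraries of another group, was found for 50 genes. They included *Actb*, which was at 0 in undifferentiated KO MSCs and at a mean of 4264 RPKM in undifferentiated WT MSCs, and *Eef1a1*, which was at 0 in all groups except undifferentiated KO MSCs. Such zeros were treated as missing estimates, so *Thbs1* was compared with nothing, and 9 of the 10 genes remained for the comparisons. Of the 50 genes, 21 were missing in 1 group, 16 in 2 groups and 13, *Thbs1* among them, in 3 groups. Most of the 50 were microRNA or small nucleolar RNA genes. The rule cannot tell a failed estimate from a true 0. *Lcn2*, set to missing in undifferentiated WT MSCs, was at a mean of only 0.0160 RPKM in undifferentiated KO MSCs.

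**Figure D1:**
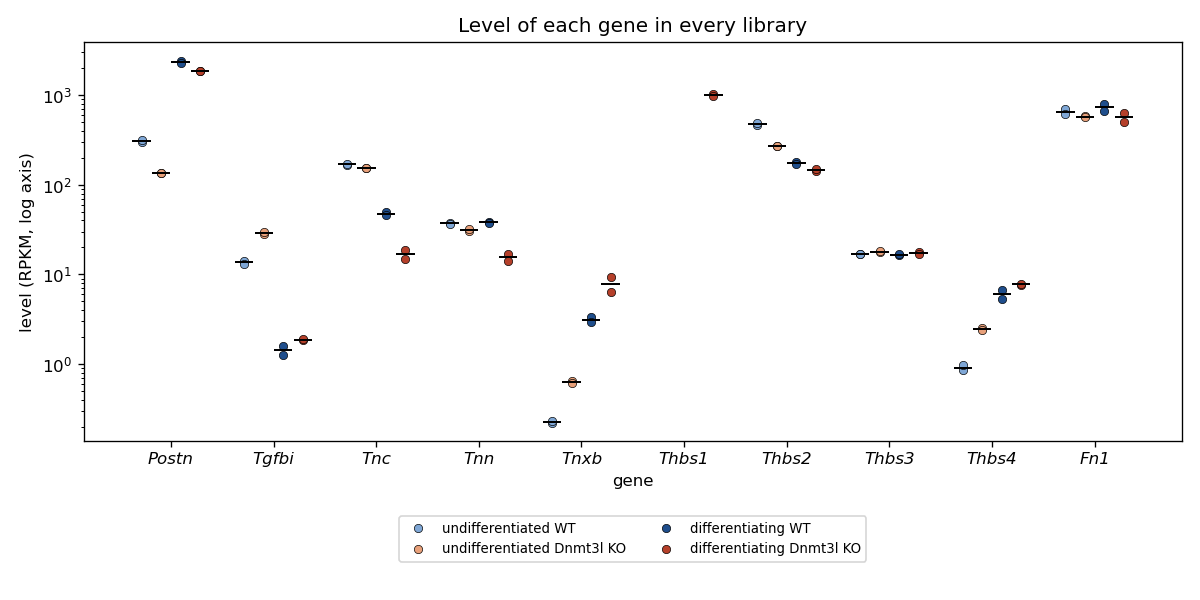
Level of each of the 10 genes in RPKM on a log axis, with a point for each library and a line at the mean of the 2 libraries of a group. The points of *Postn* reach 2440.1 RPKM in differentiating WT MSCs, those of *Thbs3* stay between 16.5 and 18.1 RPKM, and *Thbs1* has points in differentiating KO MSCs alone because its zeros are not drawn.

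The order of the 9 genes by mean RPKM in undifferentiated WT MSCs was *Fn1* (656 ± 60.6, SD, n = 2), *Thbs2* (480.4 ± 13.8), *Postn* (307 ± 11.6), *Tnc* (169 ± 0.902), *Tnn* (37.0 ± 0.201), *Thbs3* (17.0 ± 0.0390), *Tgfbi* (13.6 ± 0.666), *Thbs4* (0.914 ± 0.0753) and *Tnxb* (0.227 ± 0.00808), and no neighbours overlapped. In undifferentiated KO MSCs, *Tnc* stood above *Postn* and *Tgfbi* stood above *Thbs3*, again without overlap between neighbours. In differentiating WT MSCs, *Postn* was first and *Tgfbi* last. In differentiating KO MSCs, *Thbs3*, *Tnc* and *Tnn* overlapped as neighbours, and so did *Tnxb* and *Thbs4*.

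The summed level of the 9 genes was 1681 ± 35.0 RPKM (SD, n = 2) in undifferentiated WT MSCs and 1219 ± 16.1 RPKM in undifferentiated KO MSCs. It was 3374 ± 233 RPKM in differentiating WT MSCs and 2654 ± 85.3 RPKM in differentiating KO MSCs. *Postn* made up 18.3% of this sum in undifferentiated WT MSCs, 11.1% in undifferentiated KO MSCs, 69.7% in differentiating WT MSCs and 70.5% in differentiating KO MSCs. *Thbs2* made up 28.6%, 22.1%, 5.18% and 5.53% of the sum in the same order of groups, and *Fn1* 39.0%, 47.5%, 21.8% and 21.5%.

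**Figure D2:**
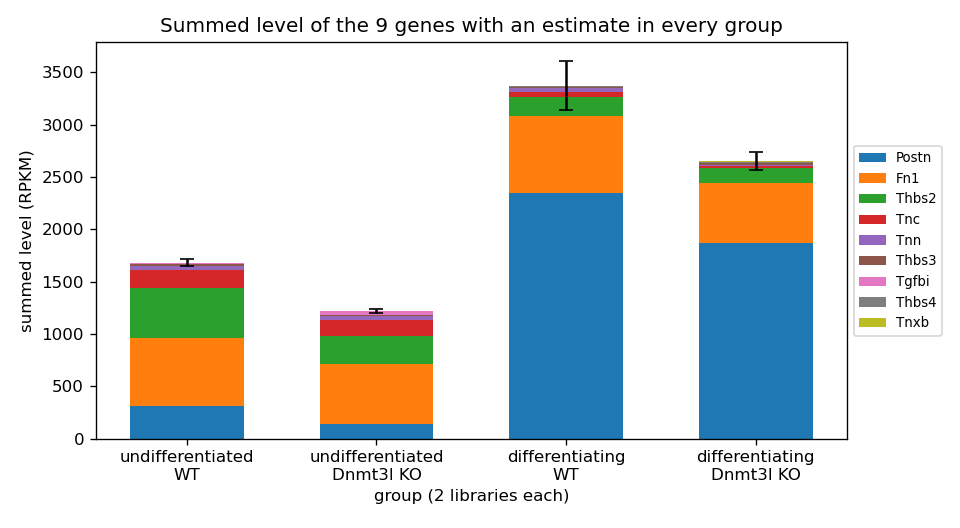
Summed RPKM of the 9 genes with an estimate in every group, stacked by the mean of each gene, with an error bar of 1 SD of the sum over the 2 libraries of a group. The *Postn* segment grows from 18.3% to 69.7% of the bar in WT MSCs and from 11.1% to 70.5% in KO MSCs.

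The first comparison asked how the loss of *Dnmt3l* went with the expression of these genes before any induction. *Postn* and *Thbs2* were lower in undifferentiated KO MSCs than in undifferentiated WT MSCs, and *Tgfbi*, *Tnxb* and *Thbs4* were higher. A gene was called where its adjusted p-value was under 0.05 in limma, with Benjamini-Hochberg adjustment over all genes tested, and was a differentially expressed gene (DEG) where it was also over 2-fold changed. Of the 9 genes, 3 were called higher, against 14.6% of all genes tested, and 2 were called lower, against 17.5% of all genes tested. 4 of the 9 were DEGs, against 1.64% of all genes tested. The median difference of the 9 genes was -0.14 on the log2 scale, and that of all genes tested was -0.0035.

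*Postn* fell 2.26-fold in undifferentiated KO MSCs (log2 fold change -1.18, SE 0.05, adjusted p = 0.00026). *Thbs2*, the other member that was lower, fell 1.78-fold (-0.83, SE 0.04, adjusted p = 0.000368). All fold changes were computed from log2(RPKM + 0.1), so those of scarce genes come out smaller than the ratio of their RPKM values. Among the genes that rose, *Thbs4* was 2.53-fold higher (1.34, SE 0.11, adjusted p = 0.00114). *Tgfbi* was 2.12-fold higher (1.08, SE 0.10, adjusted p = 0.00141). *Tnxb* was 2.23-fold higher (1.16, SE 0.17, adjusted p = 0.00548), and the ratio of its mean RPKM values was 2.78.

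*Tnc*, *Tnn*, *Thbs3* and *Fn1* were not called between genotypes in the undifferentiated state. The difference was -0.14 for *Tnc* (95% interval -0.38 to 0.10, adjusted p = 0.307), -0.24 for *Tnn* (-0.44 to -0.03, adjusted p = 0.0821), 0.08 for *Thbs3* (-0.02 to 0.17, adjusted p = 0.174) and -0.18 for *Fn1* (-0.54 to 0.18, adjusted p = 0.393). The intervals leave out a 2-fold difference for each of these 4 genes. When only the undifferentiated libraries were fitted, or either differentiating KO library was left out, the same differences of *Tnc* and *Tnn* were called (adjusted p = 0.0177 and 0.0216 in the undifferentiated libraries alone), which made 4 genes lower. The call of *Tnxb* was lost with a pseudocount of 1 (0.41, adjusted p = 0.0833).

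In bulk RNA, fewer cells of a type and less RNA per cell cannot be told apart. Summed macrophage and leukocyte markers (12 genes) were at 21.2 to 22.1 RPKM in undifferentiated WT MSCs and at 10.6 to 11.4 RPKM in undifferentiated KO MSCs, with 5 of the 10 tested genes lower and 2 higher, and none was at 0 in both libraries of either group. Most of the difference between these sums was that of *Lyz2*, at means of 13.1 RPKM in WT and 3.31 RPKM in KO. Smooth muscle and myofibroblast markers (7 genes) summed to 3617 to 3842 RPKM in WT and to 3868 to 3900 RPKM in KO. The part of these cells in the differences of *Postn*, *Thbs2*, *Tgfbi*, *Tnxb* and *Thbs4* was not tested.

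The second comparison asked how the genotypes differed after 3 days of osteogenic induction, since the series concerns the osteogenic ability of these cells. *Tnc* and *Tnn*, both close between genotypes before induction, were lower in differentiating KO MSCs by more than 2-fold, and *Tnxb* was higher by more than 2-fold. *Postn* and *Thbs2* were again lower and *Tgfbi* and *Thbs4* again higher in KO, by less than 2-fold each. Of the 9 genes, 3 were called higher, against 17.8% of all genes tested, and 4 were called lower, against 22.8% of all genes tested. The 3 DEGs were *Tnc*, *Tnn* and *Tnxb*, against 3.19% of all genes tested. The median difference was -0.25 for the 9 genes and -0.0069 for all genes tested.

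*Tnc* fell 2.83-fold in differentiating KO MSCs (log2 fold change -1.50, SE 0.10, adjusted p = 0.000757). *Tnn* fell 2.46-fold (-1.30, SE 0.08, adjusted p = 0.000764). *Tnxb*, the third tenascin, was 2.42-fold higher (1.28, SE 0.17, adjusted p = 0.0032). Both tenascins that fell and the one that rose kept their calls in all 18 alternative settings of the fit. *Postn* was 1.26-fold lower (-0.33, SE 0.05, adjusted p = 0.00572), a smaller difference than in the undifferentiated state. *Thbs2* was 1.19-fold lower (-0.25, SE 0.04, adjusted p = 0.00766).

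*Tgfbi* was 1.29-fold higher in differentiating KO MSCs (0.37, SE 0.10, adjusted p = 0.0303), and *Thbs4* was 1.30-fold higher (0.38, SE 0.11, adjusted p = 0.0417). Those calls are the least stable of the set. The call of *Thbs4* was lost in 11 of 18 alternative settings and that of *Tgfbi* in 8 of 18, including the fit to the differentiating libraries alone (adjusted p = 0.12 for *Thbs4* and 0.128 for *Tgfbi*). With the replicate number as a block, *Thbs4* was not called (adjusted p = 0.068). In the differentiating libraries alone *Postn* (adjusted p = 0.0997) and *Thbs2* (adjusted p = 0.0503) were not called either, and *Thbs2* was not called with quantile normalization (-0.20, adjusted p = 0.0666). *Fn1* was not called (-0.37, 95% interval -0.73 to -0.01, adjusted p = 0.0921), nor was *Thbs3* (0.08, -0.02 to 0.17, adjusted p = 0.158). Without differentiating KO replicate 2 both were called, *Fn1* lower (-0.55, adjusted p = 0.0436) and *Thbs3* higher (0.12, adjusted p = 0.0481), and 5 members were then lower.

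Other marker lists moved with genotype in the differentiating state. Smooth muscle and myofibroblast markers summed to 650.2 to 742 RPKM in differentiating WT MSCs and to 249.6 to 362 RPKM in differentiating KO MSCs, and all 7 were lower in KO. The lower sum was that of KO replicate 2, the library with the lower *Tnc* and *Tnn* and the higher *Tnxb*. Macrophage and leukocyte markers summed to 33.4 to 38.3 RPKM in WT and to 14.2 to 15.3 RPKM in KO, with 9 of the 10 tested genes lower and 1 higher, and *Spi1* was at 0 in both KO libraries. Most of the difference between these sums was again that of *Lyz2*, at means of 24.7 RPKM in WT and 7.24 RPKM in KO. Osteoblast markers (11 genes) summed to 2099.5 to 2323 RPKM in WT and to 1171 to 1240.3 RPKM in KO, with 7 lower and 0 higher. Their part in the differences of the tenascins was not tested.

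**Figure D3:**
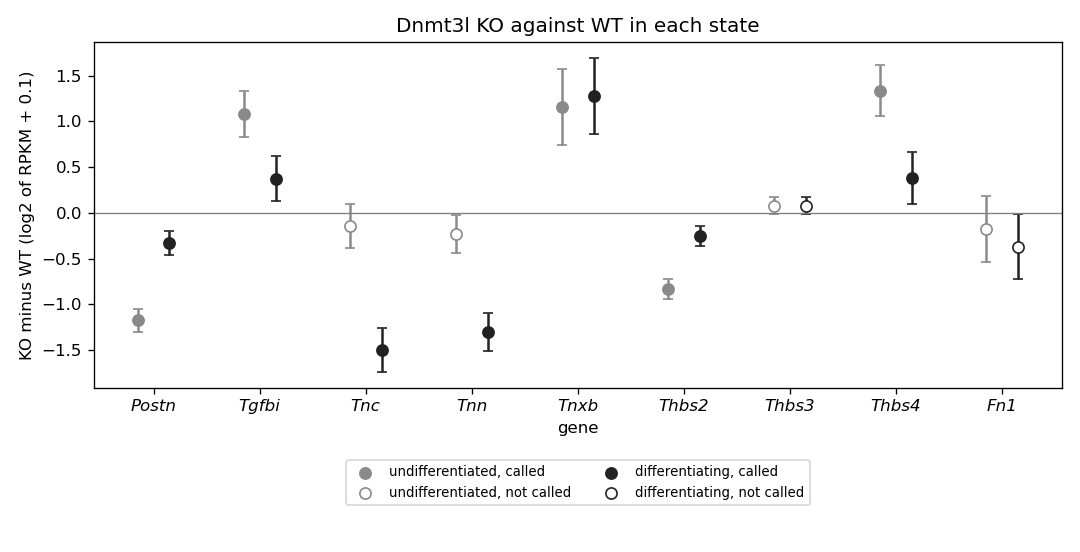
Log2 difference in log2(RPKM + 0.1) between KO and WT MSCs for the 9 genes compared, in the undifferentiated state (grey) and the differentiating state (black), with 95% intervals and filled points for genes called. *Tnc* and *Tnn* lie near 0 before induction (-0.14 and -0.24) and at -1.50 and -1.30 after it, while *Postn* moves from -1.18 to -0.33.

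The third comparison followed osteogenic induction within each genotype. In WT MSCs, *Postn*, *Tnxb* and *Thbs4* rose and *Tgfbi*, *Tnc* and *Thbs2* fell, each by more than 2-fold. In KO MSCs the same 6 genes were called in the same directions, and *Tnn* fell as well. Of the 9 genes, 3 were called higher in WT, against 31.7% of all genes tested, and 3 were called lower, against 32.8% of all genes tested, so that the shares called in either direction were close to those of all genes. By contrast 6 of the 9 were DEGs, against 14.3% of all genes tested. In KO MSCs 3 were called higher, against 36.3% of all genes tested, 4 were called lower, against 36.6% of all genes tested, and 6 were DEGs, against 22.8% of all genes tested. The median change was 0.04 in WT and -0.03 in KO for the 9 genes, and 0 and -0.0002 for all genes tested.

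*Postn* rose 7.65-fold in WT MSCs (log2 fold change 2.94, SE 0.05, adjusted p = 7.02e-07) and 13.8-fold in KO MSCs (3.78, adjusted p = 2.71e-07). *Tnxb* rose 9.85-fold in WT (3.30, SE 0.17, adjusted p = 1.95e-05) and 10.7-fold in KO (3.42, adjusted p = 9.39e-06). The size of this rise rests on the pseudocount, since with 1 in place of 0.1 it was 1.75 in WT and 2.42 in KO on the log2 scale, while the ratio of mean RPKM values was 13.8 in WT and 12.4 in KO. *Thbs4* rose 5.96-fold in WT (2.57, SE 0.11, adjusted p = 1.11e-05) and 3.07-fold in KO (1.62, adjusted p = 3.95e-05), and with a pseudocount of 1 its rise in WT was 1.86 on the log2 scale. The 3 genes that rose thus came from 3 families, a fasciclin protein, a tenascin and a thrombospondin, and each of those families also held a gene that fell.

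*Tgfbi* fell 9.03-fold in WT MSCs (-3.18, SE 0.10, adjusted p = 3.66e-06) and 14.8-fold in KO MSCs (-3.89, adjusted p = 1.06e-06). *Tnc* fell 3.53-fold in WT (-1.82, SE 0.10, adjusted p = 2.25e-05) and 9.06-fold in KO (-3.18, adjusted p = 1.73e-06). *Thbs2* fell 2.75-fold in WT (-1.46, SE 0.04, adjusted p = 3.27e-06) and 1.84-fold in KO (-0.88, adjusted p = 1.01e-05), the only member that was a DEG in WT and under 2-fold in KO. *Tnn* was not called in WT (0.04, 95% interval -0.17 to 0.25, adjusted p = 0.71) and fell 2.04-fold in KO (-1.03, SE 0.08, adjusted p = 7.71e-05).

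*Fn1* and *Thbs3* were not called in either genotype. The change of *Fn1* was 0.16 in WT (95% interval -0.20 to 0.52, adjusted p = 0.375) and -0.03 in KO (-0.39 to 0.33, adjusted p = 0.858). That of *Thbs3* was -0.03 in WT (-0.12 to 0.06, adjusted p = 0.488) and -0.03 in KO (-0.12 to 0.06, adjusted p = 0.479). When each library was centred on its median, the median change of all genes in WT moved to -0.10 and that in KO to -0.08, and *Thbs3* was called lower in both (-0.13, adjusted p = 0.0227, and -0.11, adjusted p = 0.0344).

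Adipocyte markers (8 genes) rose with induction, from sums of 57.1 to 60.3 RPKM to 420.6 to 423 RPKM in WT and from 65.2 to 67.7 RPKM to 443 to 468 RPKM in KO. All 7 tested genes of that list were called higher in both genotypes, and *Lep* was at 0 in both undifferentiated groups. The sum of smooth muscle and myofibroblast markers went from 3617 to 3842 RPKM to 650.2 to 742 RPKM in WT, where 5 of 7 were lower and 2, *Myocd* (2.76) and *Des* (0.47), were higher. In KO it went from 3868 to 3900 RPKM to 249.6 to 362 RPKM, where 5 were lower and 1, *Myocd* (1.06), was higher. Osteoblast markers summed to 1228 to 1359 RPKM before and 2099.5 to 2323 RPKM after induction in WT, with 3 of 11 higher and 2 lower, and to 1514 to 1589 RPKM before and 1171 to 1240.3 RPKM after it in KO, with 2 higher and 5 lower. Tendon and cartilage markers (8 genes) summed to 203 RPKM in each WT library before and 360.4 to 383 RPKM after induction. In KO they summed to 208 to 209 RPKM before and 529 to 619 RPKM after it. In both genotypes 4 of the 7 tested genes were higher and 3 lower. *Comp* carried the rise of the sum, with means from 27.7 to 282 RPKM in WT and from 26.0 to 514 RPKM in KO. *Col2a1* fell from 121 to 42.1 RPKM in WT and from 134 to 8.3 RPKM in KO. Macrophage and leukocyte markers summed to 33.4 to 38.3 RPKM in differentiating WT MSCs, with 6 of the 10 tested genes higher and 3 lower, and to 14.2 to 15.3 RPKM in differentiating KO MSCs, with 2 higher and 3 lower. The part of these cells in the changes of the 9 genes was not tested.

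**Figure D4:**
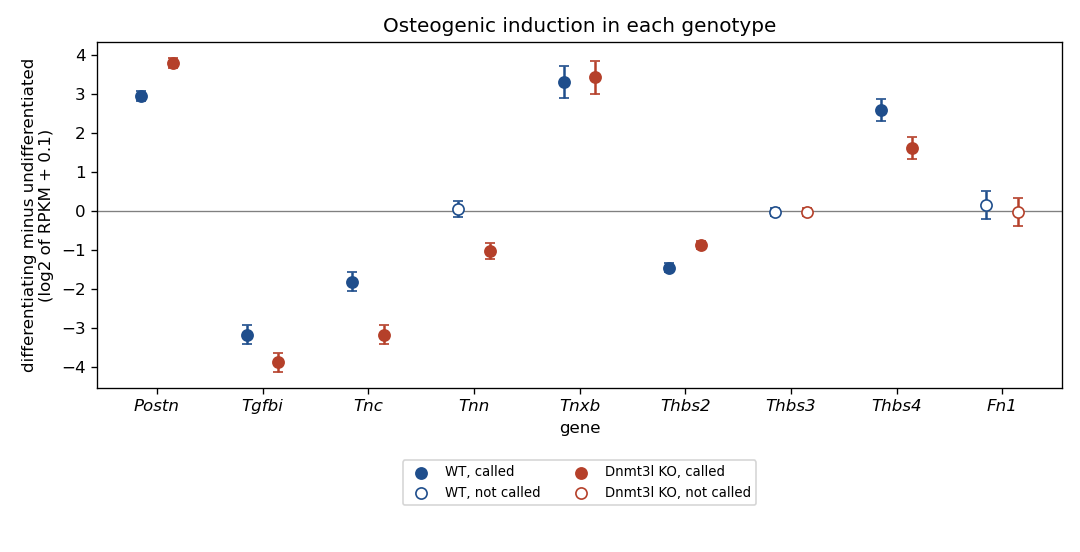
Change in log2(RPKM + 0.1) from undifferentiated to differentiating MSCs for the 9 genes compared, in WT (blue) and KO (red), with 95% intervals and filled points for genes called. *Postn* rises by 2.94 in WT and 3.78 in KO, *Tnc* changes by -1.82 and -3.18, and *Tnn* by 0.04 and -1.03.

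Whether induction changed a gene to a different extent in the 2 genotypes was tested with the interaction term, coded as the change in KO minus the change in WT. It was called above 0 for 2 of the 9 genes, against 19.4% of all genes tested. It was called below 0 for 4 of the 9, against 20.0% of all genes tested. 2 of the 9 passed both the adjusted p and the 2-fold limit, against 6.05% of all genes tested. The median interaction was -0.19 for the 9 genes and -0.0069 for all genes tested. *Tnc* and *Tnn* had the largest terms. The term was -1.36 for *Tnc* (SE 0.14, adjusted p = 0.00153) and -1.06 for *Tnn* (SE 0.12, adjusted p = 0.00197). *Tnc* fell further in KO MSCs than in WT MSCs, while *Tnn* fell in KO MSCs and was not called in WT MSCs. *Thbs4* had a term of -0.95 (SE 0.16, adjusted p = 0.00677), having risen less in KO, and *Tgfbi* one of -0.71 (SE 0.14, adjusted p = 0.0117), having fallen further in KO. *Postn* had a term of 0.85 (SE 0.07, adjusted p = 0.00115) and rose further in KO, from a lower start to a level that was still lower. *Thbs2* had a term of 0.58 (SE 0.06, adjusted p = 0.0018) and fell less in KO.

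*Tnxb* was higher in KO in both states, with no difference between them called (interaction 0.12, 95% interval -0.47 to 0.71, adjusted p = 0.731). With a pseudocount of 1 in place of 0.1 this term was 0.67 (adjusted p = 0.0473), and with 0.01 it was -0.13 (adjusted p = 0.699). *Thbs3* (0.00029, -0.13 to 0.13, adjusted p = 0.998) and *Fn1* (-0.19, -0.70 to 0.31, adjusted p = 0.499) had no term called. The 6 interaction calls held in all 17 alternative settings of the fit.

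The proteins encoded by these genes act through integrins and other receptors, and genes of that machinery were examined as lists that leave the 10 genes out. The counts of each list are set against the shares of all genes tested, which were 14.6% higher and 17.5% lower in undifferentiated KO MSCs, 17.8% and 22.8% in differentiating KO MSCs, 31.7% and 32.8% with induction in WT, and 36.3% and 36.6% with induction in KO. In undifferentiated MSCs, 6 of 21 receptor genes were higher and 9 lower in KO, with a median of -0.16. In differentiating MSCs none was higher and 11 of 21 were lower, with a median of -0.28 against -0.0069 for all genes. The largest fall was that of *Plaur*, the urokinase receptor, at 17.4 and 18.0 RPKM in WT and 10.8 and 9.39 RPKM in KO (-0.80, adjusted p = 0.00104). *Itga5*, the fibronectin receptor subunit, was at 50.5 and 47.0 RPKM in WT and 70.8 and 71.3 RPKM in KO before induction, and at 48.1 and 48.3 RPKM in WT and 32.5 and 30.8 RPKM in KO after it. It had the lowest interaction of the list (-1.15, adjusted p = 0.000531) and is named here after its values were seen. In undifferentiated MSCs the list's largest rise was that of *Itgb6* (0.98, adjusted p = 0.00638) and its largest fall that of *Cd36*, a thrombospondin receptor (-1.10, adjusted p = 0.0277), both of them scarce. With induction 8 of 21 receptor genes were higher and 10 lower in WT, led by *Itga4* (1.34, adjusted p = 0.000115) and *Ptprz1* (-2.21, adjusted p = 0.000135). In KO 5 were higher and 11 lower, led by *Itgb8* (1.15, adjusted p = 0.000134) and *Plaur* (-3.15, adjusted p = 5.81e-07). *Itga4* and *Ptprz1* were scarce, at means of 0.285 and 0.692 RPKM in undifferentiated WT MSCs. So was *Itgb8*, at 0.805 RPKM in undifferentiated KO MSCs.

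Of the other matricellular genes, 18 of 23 were tested. In undifferentiated KO MSCs 1 was higher, *Fbln1* (0.29, adjusted p = 0.0468), and 7 were lower, led by *Wisp1* at 92.7 and 94.0 RPKM in WT and 41.9 and 41.6 RPKM in KO (-1.16, adjusted p = 0.000688). In differentiating KO MSCs 5 were higher, led by *Sparcl1* (1.51, adjusted p = 0.00445), and 8 lower, led by *Ctgf* (-1.64, adjusted p = 0.00154). *Ctgf*, whose product is connective tissue growth factor, was at 727 and 789 RPKM in WT and 716 and 687 RPKM in KO before induction, and at 169.8 and 192 RPKM in WT and 69.4 and 48.3 RPKM in KO after it, so that its genotypes were close before induction and apart after it, as for *Tnc*. With induction 11 of 18 were higher and 4 lower in WT, and 10 higher and 6 lower in KO. *Sparcl1* had the largest rise in both (4.47 in WT and 5.39 in KO), and the largest falls were those of *Wisp1* in WT (-2.96, adjusted p = 2.61e-06) and *Ctgf* in KO (-3.60, adjusted p = 7.25e-06). The rises of *Sparcl1* began from means of 0.153 RPKM in WT and 0.270 RPKM in KO, near the pseudocount of 0.1.

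Genes for matrix proteins and enzymes that take part in assembly with these proteins were mixed. In undifferentiated KO MSCs 9 of 28 were higher and 7 lower, led by *Lum* (1.19, adjusted p = 0.00499) and *Eln* (-0.67, adjusted p = 0.0078). In differentiating KO MSCs 8 of 27 were higher and 9 lower. *Dcn*, the small collagen-binding proteoglycan decorin, was at 68.6 and 53.0 RPKM in differentiating WT and 230.4 and 270.1 RPKM in differentiating KO (2.05, adjusted p = 0.000988), and *Bcan* had the largest fall (-1.48, adjusted p = 0.00159). *Bcan* was scarce, at means of 0.582 RPKM in differentiating WT and 0.146 RPKM in differentiating KO. With induction 13 of 27 were higher and 8 lower in WT, and 13 of 28 higher and 11 lower in KO. *Dcn* led the rises in both genotypes (4.21 in WT and 5.27 in KO), and *Bcan* (-0.83, adjusted p = 0.00392) and *Ltbp2* (-2.23, adjusted p = 3.83e-07) led the falls in WT and KO.

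TGF-beta induces periostin, the *Tgfbi* product, tenascin-C and fibronectin in many cells. Of 18 genes of the TGF-beta axis, 7 were higher and 6 lower in undifferentiated KO MSCs, led by the receptors *Tgfbr3* (0.77, adjusted p = 0.00207) and *Tgfbr2* (-0.69, adjusted p = 0.000558). In differentiating KO MSCs 3 were higher, led by *Tgfbr3* (0.41, adjusted p = 0.0115), and 9 were lower, led by *Ctgf*. With induction 4 were higher and 13 lower in WT, with a median of -0.75, and 3 higher and 14 lower in KO, with a median of -1.33. The largest fall in WT was that of *Inhba* (-2.20, adjusted p = 2.1e-06). *Tgfbr3* had the largest rise in both genotypes (2.76 in WT and 2.40 in KO). With induction *Tnc*, *Tgfbi* and *Thbs2* fell in both genotypes, while *Postn* rose and *Fn1* was not called in either. The part of TGF-beta signals in these changes was not tested.

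Of 17 transcription regulators linked to bone, tendon or contractile matrix genes, 3 were higher and 4 lower in undifferentiated KO MSCs. The largest fall was that of *Fos*, a subunit of AP-1, at 13.3 and 14.5 RPKM in WT and 3.53 and 4.04 RPKM in KO (-1.85, adjusted p = 0.000228), and the largest rise that of *Mkl1* (0.67, adjusted p = 0.00119). In differentiating KO MSCs 3 were higher, led by *Twist1* (0.29, adjusted p = 0.0136), and 6 lower, led by *Scx* (-0.95, adjusted p = 0.00179). *Scx*, the tendon factor scleraxis, was at 37.5 and 42.2 RPKM in WT and 36.1 and 36.2 RPKM in KO before induction, and at 4.04 RPKM in each WT library and 2.28 and 1.84 RPKM in KO after it. It had the largest fall of the list with induction (-3.27 in WT and -4.08 in KO). With induction 8 were higher and 6 lower in WT, led upwards by *Klf4* (1.63, adjusted p = 1.9e-06), and 8 were higher and 8 lower in KO, led upwards by *Fos* (2.04, adjusted p = 3.74e-06).

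**Figure D5:**
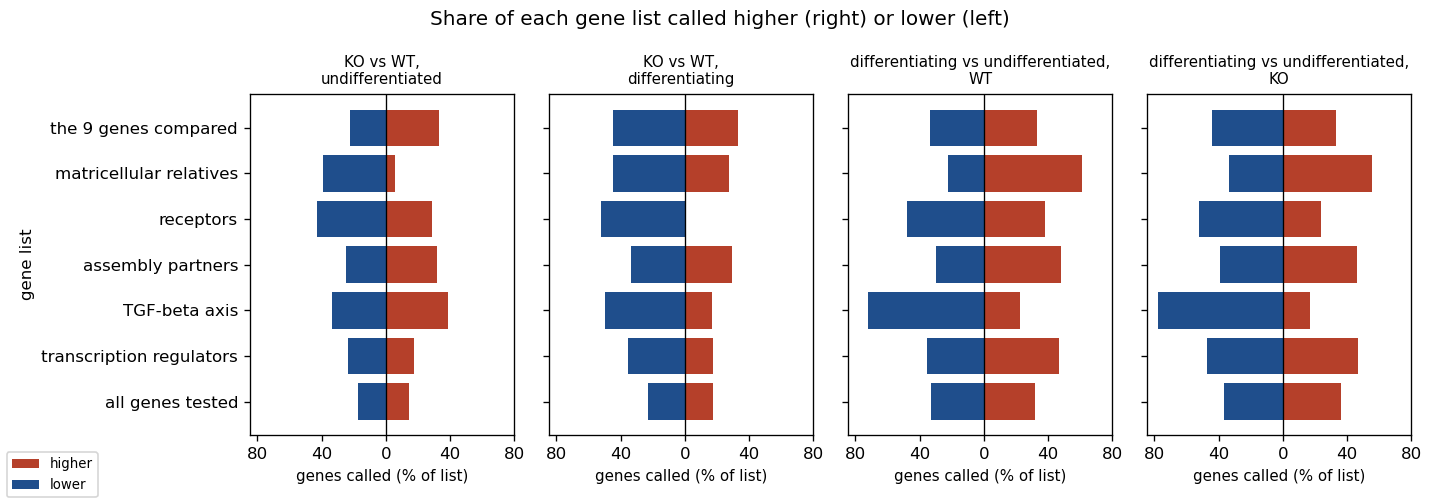
Percent of the tested genes of each list that were called higher (red, to the right) or lower (blue, to the left) in the 4 comparisons, for the 9 genes compared, 5 lists of related genes and all genes tested. In differentiating KO against WT no receptor gene is called higher, and in both induction comparisons most TGF-beta axis genes are called lower (13 of 18 in WT and 14 of 18 in KO).

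The genes whose pattern was most like that of each member were found by Pearson's r of log2(RPKM + 0.1) over the 8 libraries, which are 2 libraries in each of 4 groups and share the induction, so r is a description. *Hes1* (0.999) and *Ctgf* (0.998) were most like *Tnc*. *Hes1*, a target gene of Notch, changed by -1.71 with induction in WT and by -2.94 in KO. *Pigc* and *Atl3* (both 0.999) were most like *Postn*, *Rif1* (0.999) and *Osbpl3* (0.998) most like *Tgfbi*, and *Hk1* and *Rab1* (both 0.986) most like *Tnn*. *Fam43a* and *Cc2d1a* (both 0.998) were most like *Tnxb*, *Tcf12* and *Aff4* (both 0.997) most like *Thbs2*, and *Sestd1* (0.998) and *Mbd4* (0.997) most like *Thbs4*. The pattern of *Fn1* was most like that of *Bgn* (0.967) and *Gsk3b* (0.911), and that of *Thbs3* most like those of *Snhg7* (0.977) and *Atrip* (0.938), lower values that go with the narrow span of both genes.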

How the data were processed

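RNA of 8 libraries, 2 for each combination of genotype and state, was depleted of ribosomal RNA and sequenced single-end. The authors aligned strand-specific reads to mm10 with TopHat2 (version 2.1.0 in the submitters' processing notes) using gene models from iGenomes, and Cuffdiff of Cufflinks (version 2.2.1) gave the values per gene. The deposited values are RPKM per gene and library, not pooled; the normalization across libraries is not given in the sources used here. A whole number of reads (tolerance 0.05) was found for 69.8% of 3010 low values, too few for a count test. The depth of each library was the one that made this share highest. By chance 10.0% would be whole at a depth fixed beforehand, so the 2 shares are not directly comparable. Estimated reads and the depth range cover counting error only.

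Samples were grouped by their labels, and 0 columns of per-sample values lacked a sample. After a minimum of 0.1 RPKM on the mean over libraries, log2(RPKM + 0.1) was tested with limma 3.58.1 (R 4.3.3, variance trend) in 1 fit to all 8 libraries with a mean per group (4 residual and 1.95 prior degrees of freedom). P-values were two-sided and adjusted with the Benjamini-Hochberg method over all genes tested, 15292 to 15308 in each comparison. Zeros in both libraries of a group, for genes at 20 RPKM or more in both libraries of another group, were set to missing (50 genes). The fit was also run on simulated independent values, which cannot show whether the 2 libraries of a group are technical replicates. Alternatives changed the pseudocount, the expression minimum, the normalization, the variance trend, the libraries fitted, the handling of zeros and the replicate block. The named genes were all members, the 2 genes most like each, and the gene with the largest rise and the largest fall of each related list in each comparison. A gene that this rule named is not reported here. The members and lists were chosen with earlier results of these data known. Promoters are from RefSeq (GRCm38.p6), and positions and overlaps from GENCODE M21.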

Additional observations from a re-analysis of the deposited data

Results flagged for a closer look

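For 6 of the 9 genes compared, the change with osteogenic induction differed between KO and WT MSCs by the interaction term of the fit (limma, Benjamini-Hochberg adjustment), coded as KO minus WT on the log2 scale. The differences were 0.85 for *Postn* (adjusted p = 0.00115), -0.71 for *Tgfbi* (adjusted p = 0.0117), -1.36 for *Tnc* (adjusted p = 0.00153), -1.06 for *Tnn* (adjusted p = 0.00197), 0.58 for *Thbs2* (adjusted p = 0.0018) and -0.95 for *Thbs4* (adjusted p = 0.00677). With 2 libraries per group, a library far from its group could not be looked for.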

How the results depend on the processing

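Of 801 values of single members under an alternative setting, 756 kept their direction and their side of the threshold. When only the libraries compared were fitted, 4 members were lower in undifferentiated KO MSCs, and 1 was higher and 2 were lower in differentiating KO MSCs. With the added limit of a 2-fold change, 1 member was lower in undifferentiated KO MSCs, and 1 was higher and 2 were lower in differentiating KO MSCs. With the same limit, 0 members had an interaction called above 0 and 2 had one called below it. Leaving out 1 library at a time gave 2 to 4 members lower in undifferentiated KO MSCs, where either differentiating KO library made the difference, and 1 to 3 higher in differentiating KO MSCs, where 1 was left without any of 6 libraries (both undifferentiated WT, both undifferentiated KO, differentiating WT replicate 2 and differentiating KO replicate 1).

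Values that changed sign were those near 0. The change of *Tnn* in WT was -0.061 with median centring, and that of *Fn1* in KO was 0.069 with quantile normalization and -0.21 to 0.14 without 1 library. The change of *Thbs3* in KO was -0.075 to 0.011 without 1 library. The interaction of *Tnxb* was -0.13 with a pseudocount of 0.01 and -0.14 without differentiating KO replicate 2, and that of *Thbs3* was -0.043 to 0.043 without 1 library. The cause was not tested.

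The replicate number as a block changed 1 call, that of *Thbs4* in differentiating KO MSCs (0.38, adjusted p = 0.068). Deviations of same-numbered libraries correlated at -0.093 to 0.032 over all genes, which cannot show whether they shared a culture or a mixture of mice. Depth limits *Tnxb* and *Thbs4* most, and 2 libraries per group limit every comparison.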
